A study of Mus musculus with 3 samples.

Results

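Capillaries of the heart take up most of the fat that the muscle burns, and 7 genes of that route were followed: Fabp4, Fabp5, Cd36, Gpihbp1, Lpl, Meox2 and Tcf15. They were chosen by name, as known members of the route in heart endothelium, with earlier results of these data known, and all 7 had a row among the 17126 genes of the data. The cells came from adult mouse hearts. After collagenase II digestion and a slow spin that takes cardiomyocytes away, the interstitial cells were sorted by flow cytometry on 2 proteins, Lin28 and cKit. There were 3 sorted populations, each measured as 1 droplet-based single-cell library. By its label the first was negative for both (Lin28-negative cKit-negative), the second positive for Lin28 alone (Lin28-positive cKit-negative) and the last positive for both (Lin28-positive cKit-positive). Values given as a series of 3 follow this order. The labels state no genotype, treatment, strain or sex, and do not say how many animals were used. With 1 library per population there is no replicate, so nothing was tested, and ranges in parentheses after levels and ratios are 95% intervals for counting error only.

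Triglycerides reach the heart in lipoproteins. Lipoprotein lipase (Lpl) frees their fatty acids on the capillary wall, where Gpihbp1 carries it across the endothelial cell and anchors it. The transporter Cd36 helps fatty acids into and across the cell, the small binding proteins Fabp4 and Fabp5 hold them in the cytoplasm, and Meox2 and Tcf15 are transcription factors that work as a pair in heart capillaries and are known to favour fatty acid uptake. Lpl is classically made by the cells under the endothelium, such as muscle and fat cells, and then moves to the vessel lumen.

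On the mouse genome build mm10 with GENCODE vM21 annotation, Fabp4 (ENSMUSG00000062515.3) lies on chromosome 3 at 10204088 to 10208576, minus strand, and Fabp5 (ENSMUSG00000027533.10) on the same chromosome at 10012548 to 10016607, plus strand. Cd36 (ENSMUSG00000002944.15) lies on chromosome 5 at 17781690 to 17888801, minus strand, Gpihbp1 (ENSMUSG00000022579.10) on chromosome 15 at 75596628 to 75599481, plus strand, and Lpl (ENSMUSG00000015568.16) on chromosome 8 at 68880491 to 68907448, plus strand. Meox2 (ENSMUSG00000036144.6) spans 37108540 to 37179534 on the plus strand of chromosome 12 and contains the sense intronic gene model Gm48617. Tcf15 (ENSMUSG00000068079.5) spans 152143561 to 152149097 on the plus strand of chromosome 2. All 7 are protein-coding genes.

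Fabp4 and Fabp5 are neighbours and relatives, and their levels part in the endocardium, so their coding sequences are shown first. The letters are the first 300 bases, from the start codon, of the coding parts of transcripts Fabp4-201 (399 bases in all, 132 codons) and Fabp5-201 (408 bases, 135 codons) of GENCODE vM21. Capitals mark the bases at which an alignment of the pair differs, 123 of those shown for Fabp4 and 127 for Fabp5.
Fabp4: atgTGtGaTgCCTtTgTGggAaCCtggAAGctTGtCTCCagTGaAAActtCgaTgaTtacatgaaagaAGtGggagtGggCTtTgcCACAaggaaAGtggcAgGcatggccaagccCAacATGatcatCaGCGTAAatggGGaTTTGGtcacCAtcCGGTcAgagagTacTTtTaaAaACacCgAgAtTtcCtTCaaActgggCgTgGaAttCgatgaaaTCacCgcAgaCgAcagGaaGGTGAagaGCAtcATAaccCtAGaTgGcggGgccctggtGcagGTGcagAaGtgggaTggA
Fabp5: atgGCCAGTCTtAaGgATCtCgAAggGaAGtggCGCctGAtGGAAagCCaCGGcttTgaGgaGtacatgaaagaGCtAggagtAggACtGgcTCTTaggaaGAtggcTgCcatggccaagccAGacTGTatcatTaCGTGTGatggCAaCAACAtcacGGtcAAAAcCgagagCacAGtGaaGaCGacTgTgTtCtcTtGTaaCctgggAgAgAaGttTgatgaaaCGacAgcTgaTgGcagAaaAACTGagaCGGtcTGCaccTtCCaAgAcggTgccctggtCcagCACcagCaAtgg
Over the whole coding sequence they share 243 of the 408 aligned columns (59.6%), and their longest run of shared bases is 12. Fabp5 also has a processed copy in the annotation, Fabp5l2, which has no row in the data.

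Upstream sequence from RefSeq (assembly GRCm38.p6, the assembly behind mm10) was matched for 2 of the 7 genes, Cd36 and Meox2, an uptake gene and a regulator that are both lower in the endocardium than in capillaries. The 250 bases before the start are printed in the direction of the gene. Capitals mark the matches to the CCAAT box, the E box (CANNTG, the kind of site bound by helix-loop-helix factors such as Tcf15) and the TATA box (TATAAA, which reads TTTATA when it lies on the other strand).
Cd36 chr5:17835897-17836146: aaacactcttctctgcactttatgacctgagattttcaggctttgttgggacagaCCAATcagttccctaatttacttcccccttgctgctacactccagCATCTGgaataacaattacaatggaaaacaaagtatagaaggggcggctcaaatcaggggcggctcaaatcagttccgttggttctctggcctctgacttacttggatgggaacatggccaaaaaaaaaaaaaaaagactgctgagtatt
Meox2 chr12:37108290-37108539: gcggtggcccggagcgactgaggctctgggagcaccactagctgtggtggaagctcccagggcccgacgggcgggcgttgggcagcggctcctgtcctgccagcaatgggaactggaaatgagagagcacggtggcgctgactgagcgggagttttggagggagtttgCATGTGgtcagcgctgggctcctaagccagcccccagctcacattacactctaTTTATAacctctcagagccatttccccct
The Cd36 entry starts inside the gene's annotated span, so it is 1 of several starts. It holds CCAAT 195 bases and the E box CATCTG 150 bases before the start, and an AGGTCA hexamer on the other strand at 228 bases, left in lower case. Meox2 holds the E box CATGTG at 82 bases and the reversed TATA box at 29 bases. Searched on both strands over 32851 mouse promoters of the same length, CCAAT occurs in 33.8%, the E box in 66.2%, TATAAA in 12.4% and the AGGTCA hexamer in 14.0%. The homeodomain core TAATTA (in 4.84% of promoters) and the PPAR element, AGGTCA repeated with 1 base between (in 0.0335%), are not in these windows. These matches only describe letters.

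The libraries held 3976, 681 and 1176 cells with 34031955, 7401174 and 10400648 UMIs (unique molecular identifiers, the tags by which captured transcripts are counted once), a median of 8630, 9628 and 8068.5 UMIs per cell. Cells were grouped without the 7 genes, the other fatty acid genes and Kit. Endothelial-like cells, in whose clusters 8 to 10 of 10 endothelial markers were strong, numbered 933 (23.5%), 245 (36.0%) and 434 (36.9%). Fibroblast-like cells were 69.6% of the Lin28-negative library but numbered only 34 and 12 in the others. Macrophage-like cells numbered 18, 276 (40.5%) and 613 (52.1%). A barcode was shared by 2 libraries in 9 cases. Leaving those cells out changed no count of called genes between libraries in all endothelial-like cells. The other counts below were not redone without them. Of 7 adipocyte markers only 1 had a row, and it had no UMI in endothelial-like cells.

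Endothelial-like cells formed 4 clusters. The capillary-like cluster (381, 151 and 245 cells) carried 4 of 6 capillary markers, Car4, Timp4, Rgcc and Kdr, and was also led by Apln, a gene of activated and tip cells. An arterial-like cluster (323, 37 and 119 cells) carried 8 of 10 arterial markers, among them Sema3g, Hey1 and Sox17. It also carried Aqp7 and Btnl9, which had been listed for capillaries. A cluster led by Col13a1 (121, 46 and 39 cells) carried Nr2f2 and Vwf of the 8 venous markers and no capillary, arterial or endocardial marker. That was too little to name a subtype, and it keeps that name. The last was endocardial-like (108, 11 and 31 cells, with 5 of 6 markers of the inner heart lining), and its 11 cells in the Lin28-positive cKit-negative library were too few for a level. This cluster also carried Nr2f2, Vwf, Vcam1, Plvap, Selp and Cpe of the 8 venous markers, and Gja4 and Bmx of the 10 arterial markers. Its name follows the list of which it carried the largest share. Levels are in CPM, the count of a gene scaled to a common total of UMIs of the same cells, and are compared between cells rather than between genes, because 3′ counts are not scaled by length.

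By share of UMIs all 7 genes were endothelial genes here, with Lpl as the exception in the Lin28-negative library. Of all UMIs of each gene, endothelial-like cells held 84.9%, 91.4% and 89.8% for Fabp4, 84.7%, 90.9% and 88.9% for Gpihbp1, and 85.0%, 91.8% and 90.6% for Tcf15. They held 66.3%, 85.2% and 88.7% for Fabp5, 86.4%, 78.9% and 76.0% for Cd36, and 56.0%, 86.8% and 89.2% for Meox2. For Lpl they held 6.58% in the Lin28-negative library, where fibroblast-like cells held 90.8%, and 63.2% in both Lin28-positive libraries.

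**Figure D1:**
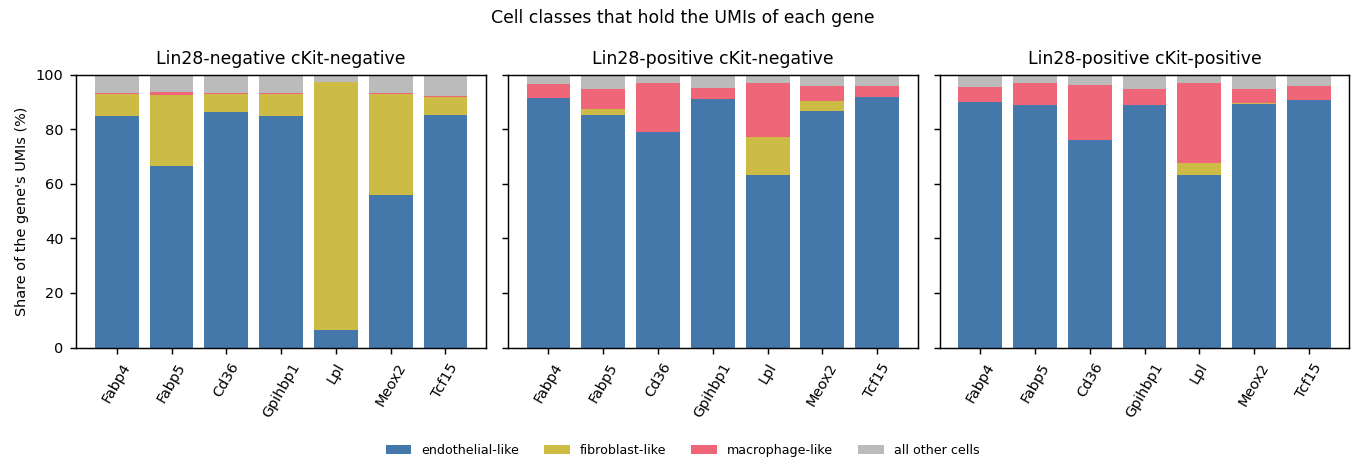
Share of each gene's UMIs (percent, y axis) that lay in endothelial-like, fibroblast-like, macrophage-like and all other cells, for each gene (x axis) and library (panels). Endothelial-like cells hold most UMIs of every gene in every library except Lpl in the Lin28-negative library, where they hold 6.58%; Cd36 and Lpl have a visible macrophage-like share in the Lin28-positive libraries.

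Set against all other cells of the same library, endothelial-like cells had 39.7, 29.4 and 25.3 times the Fabp4 level and 38.9, 27.7 and 22.9 times the Gpihbp1 level. The Tcf15 ratio was 40.1, 30.9 and 27.5, the Meox2 ratio 8.98, 18.2 and 23.7, the Fabp5 ratio 13.9, 15.9 and 22.6, and the Cd36 ratio 44.8, 10.3 and 9.08. A gene is called higher or lower where its ratio is at least 1.5 in either direction and the interval leaves out 1. By this rule 6 of 7 genes were higher in the Lin28-negative library and 7 of 7 in each of the others, beside 22.5%, 28.4% and 35.1% of all genes measured. Lpl in the Lin28-negative library was the 1 call of a lower level, and 21.9%, 21.8% and 20.4% of all genes were lower. The cell classes were drawn from the same data, so these ratios are a description. Together the 7 genes made up 3.12%, 3.06% and 3.27% of all UMIs in capillary-like cells. They made up 2.32%, 2.61% and 2.60% in arterial-like cells, 2.66%, 2.95% and 2.95% in the Col13a1-led cluster, and 0.707% and 0.892% in endocardial-like cells of the Lin28-negative and the Lin28-positive cKit-positive library. In macrophage-like cells they made up, in the Lin28-positive libraries, 0.107% and 0.101%.

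Fabp4, the fatty acid binding protein best known from fat cells and also a classic gene of capillary endothelium, was found in 100% of capillary-like cells, with a median of 83, 171 and 125 UMIs per cell. Its level there was 22586, 21772 and 24368 CPM. In arterial-like cells it was 16934, 19262 and 19182 CPM and in the Col13a1-led cluster 20740, 22224 and 22750 CPM, so all 3 of these vessel clusters carried it. Endocardial-like cells were far lower, at 3344 (3225 to 3466) CPM in the Lin28-negative and 3929 (3707 to 4160) CPM in the Lin28-positive cKit-positive library. That was 0.166 and 0.173 times the level of the other endothelial-like cells.

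Fabp5, its relative, had another pattern. Capillary-like cells held 1713 (1648 to 1781), 1421 (1355 to 1490) and 1671 (1606 to 1739) CPM, and arterial-like cells 938 (884 to 994), 985 (862 to 1121) and 1049 (972 to 1130) CPM, lower in each library with no overlap of the intervals. The Col13a1-led cluster held 1474, 1485 and 1476 CPM. Endocardial-like cells were the highest, with 3224 (3107 to 3344) and 4418 (4182 to 4663) CPM. They had 2.32 (2.22 to 2.44) and 2.99 (2.80 to 3.18) times the Fabp5 level of other endothelial-like cells, whereas the other 6 genes were all lower there. In that comparison 1 of 7 genes was called higher, beside 13.4% and 10.0% of all genes, and 6 of 7 lower, beside 15.3% and 12.6%. In arterial-like cells Fabp5 was 0.445, 0.663 and 0.512 times the level of the other endothelial-like cells and was called lower in all 3 libraries. Counts of the 7 genes called lower in arterial-like cells were 1, 2 and 1, beside 9.38%, 4.85% and 6.48% of all genes, the further one being Meox2 in the Lin28-positive cKit-negative library (0.649).

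Levels in the endocardium were set beside what capillary RNA carried along with those cells would give. The summed capillary markers in endocardial-like cells stood at 5.85% and 4.80% of their capillary level. At those shares carried RNA alone would give 39.5% and 29.8% of the endocardial Fabp4 level but only 3.11% and 1.82% of the Fabp5 level. For Cd36 it would give 59.8% and 29.0%. For Gpihbp1, Meox2 and Tcf15 the same sum gives more than was measured in both libraries, between 127% and 349% of the level. For Lpl it gives 49.5% in the Lin28-negative and 387% in the Lin28-positive cKit-positive library. Where it gives more than was measured, no level beyond carried RNA is shown. Such values also mean that these marker shares can overstate what was carried along. Whether they do so for Fabp4, Fabp5 and Cd36 was not tested.

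Cd36, the fatty acid transporter, was at 3165 (3075 to 3256), 3790 (3681 to 3901) and 2930 (2842 to 3019) CPM in capillary-like cells. The Lin28-positive cKit-negative library was the highest, and the intervals of the 3 libraries do not overlap. Arterial-like cells held 2524, 3040 and 2571 CPM, and the Col13a1-led cluster 2490, 3611 and 2871 CPM, with the same library on top in both. Endocardial-like cells held 309 (274 to 348) and 486 (410 to 571) CPM. After every cell was thinned to 1000 UMIs, 92.8%, 92.5% and 92.0% of capillary-like cells had a Cd36 UMI, and 99.5%, 99.3% and 98.8% did without thinning. Both shares are close to their ceiling. Thinning left out 107, 68 and 61 shallower cells of all kinds.

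Gpihbp1, the anchor of lipoprotein lipase, was highest in capillary-like cells in each library, with 1822 (1755 to 1892), 1507 (1439 to 1578) and 1850 (1781 to 1921) CPM. Arterial-like cells followed with 1308 (1245 to 1374), 1272 (1131 to 1425) and 1495 (1403 to 1591) CPM, and the Col13a1-led cluster had 962 (887 to 1042), 1139 (1042 to 1243) and 1123 (1000 to 1257) CPM. The intervals of the last pair overlap in the Lin28-positive cKit-negative library, so their order there is not set. Endocardial-like cells held only 40.3 and 46.9 CPM, 0.0274 and 0.0281 times the level of other endothelial-like cells.

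Lpl, the lipase, differed between all vessel clusters. Capillary-like cells held 1100 (1048 to 1155), 1394 (1328 to 1462) and 1080 (1027 to 1135) CPM and arterial-like cells 623 (579 to 669), 754 (646 to 874) and 806 (739 to 878) CPM. The Col13a1-led cluster held 327 (284 to 375), 369 (314 to 430) and 539 (455 to 634) CPM. Endocardial-like cells held 130 (107 to 156) CPM and, from 4 UMIs, 13.4 (3.65 to 34.3) CPM. The order from capillary to arterial to Col13a1-led to endocardial was the same in every library that had the cluster, with no overlap of neighbouring intervals. An Lpl UMI was found in 82.4%, 94.7% and 88.6% of capillary-like cells, and after thinning in 55.1%, 61.9% and 52.3%.

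Fibroblast RNA, which carries Lpl, was measured in the same cells. The fibroblast markers, 10 in all, summed to 4511, 207 and 493 CPM in endothelial-like cells and to 2252, 46.2 and 32.1 CPM in capillary-like cells, with 10, 9 and 10 and then 10, 8 and 8 of them detected. At the marker share of the Lin28-negative library, carried fibroblast RNA would give 104 of the 643 CPM of Lpl in endothelial-like cells (16.2%), 4.74% of the capillary-like level and 10.7% of the arterial-like level. In endocardial-like cells it would give 219% of the level measured. Lpl is also a gene of heart muscle, and a small cluster of 41 cells led by Ttn, Tnni3 and Myl2 carried muscle RNA. It stayed unnamed because 8 of the 10 fibroblast markers were strong there too, and it held 8601 CPM of Fabp4. How much of its own Lpl came from other cells was not tested. At the muscle marker share of capillary-like cells (1.56%, 2.36% and 2.90%), RNA from that cluster would give 1.54%, 1.84% and 2.91% of their Lpl.

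The transcription factors had the fewest UMIs of the 7 in capillary-like cells. Meox2, a homeobox factor, was at 201 (179 to 225), 172 (149 to 197) and 157 (138 to 179) CPM in capillary-like cells and at 204 (170 to 242), 226 (184 to 275) and 294 (233 to 366) CPM in the Col13a1-led cluster. Arterial-like cells held 108 (89.8 to 128), 116 (76.2 to 168) and 132 (106 to 163) CPM. The capillary and arterial intervals overlap in both Lin28-positive libraries, and the Col13a1-led cluster was the highest with no overlap in the Lin28-positive cKit-positive library alone. Against the other endothelial-like cells the Col13a1-led cluster stood at 1.69, 1.46 and 2.23 times, called higher in the first and the last. Meox2 was the 1 gene of the 7 called higher in these cells, in 1, 0 and 1 cases beside 5.18%, 7.20% and 5.14% of all genes. Lpl was the 1 gene called lower there in each library (0.468, 0.302 and 0.617), beside 6.49%, 5.41% and 4.13%.

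Tcf15, a helix-loop-helix factor, was the only one of the 7 with its highest point estimate in arterial-like cells in all 3 libraries. These held 729 (681 to 778), 655 (555 to 768) and 777 (711 to 847) CPM, and capillary-like cells 616 (577 to 657), 514 (475 to 556) and 618 (578 to 660) CPM. The intervals just overlap in the Lin28-positive cKit-negative library, which has 37 arterial-like cells. Against the other endothelial-like cells the arterial-like level was 1.81, 1.37 and 1.53 times, and Tcf15 was the 1 gene of the 7 called higher there, in the first and last library, beside 5.92%, 4.28% and 5.0% of all genes. The Col13a1-led cluster held 438, 473 and 454 CPM. In endocardial-like cells both factors were almost absent: Meox2 had 3 UMIs in 108 cells and 1 UMI in 31 cells, and Tcf15 was at 22.4 and 23.4 CPM.

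**Figure D2:**
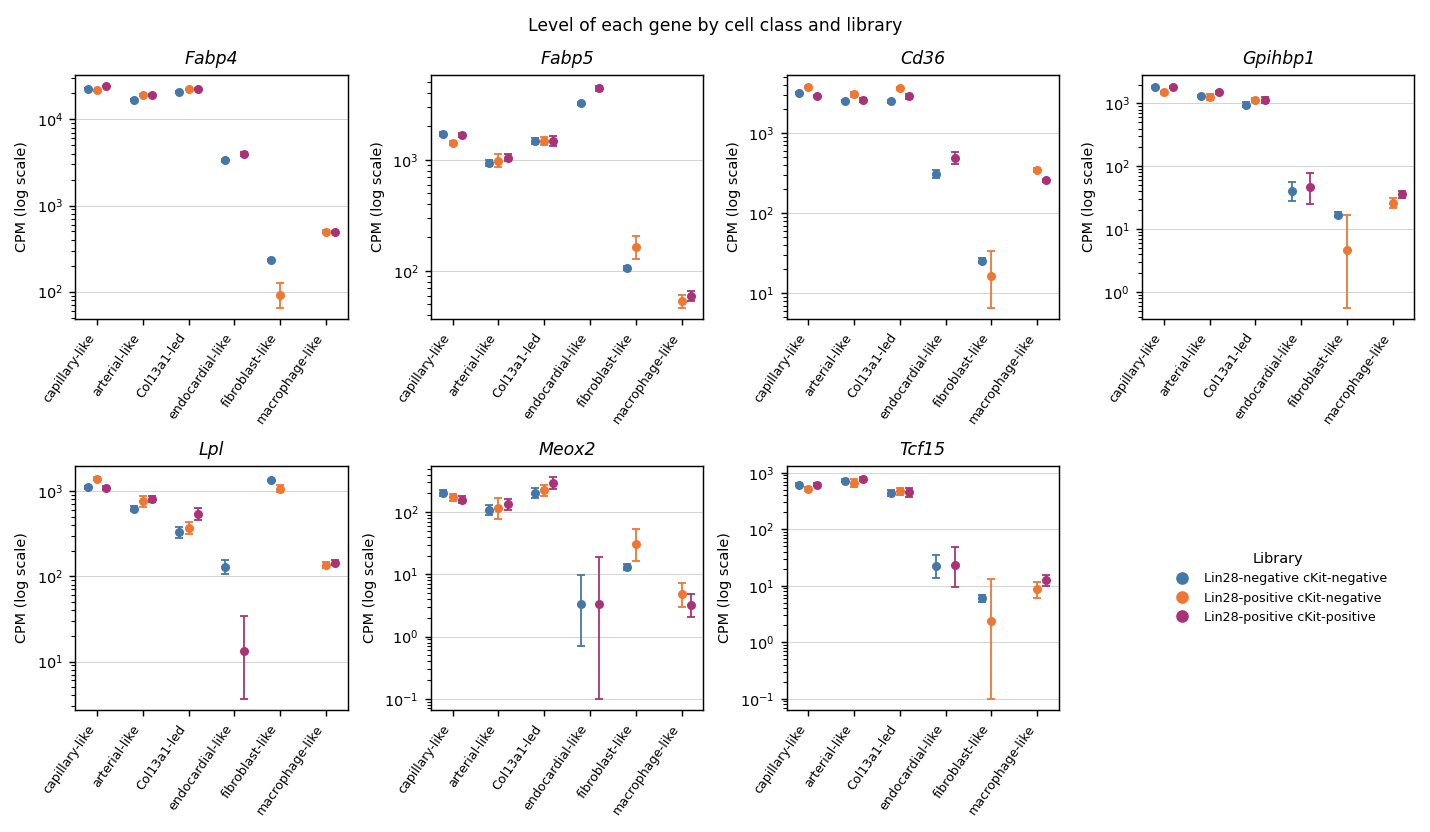
Level of each gene (CPM, log scale, with 95% Poisson intervals) in the 4 endothelial clusters and in fibroblast-like and macrophage-like cells, coloured by library; classes under 20 cells in a library are not drawn, and lower interval ends below 0.1 CPM are drawn at 0.1. Fabp5 peaks in endocardial-like cells at 3224 and 4418 CPM while the other 6 genes are lower there, and Lpl is higher in fibroblast-like than in capillary-like cells of the Lin28-negative library (1336 against 1100 CPM) but lower in the Lin28-positive cKit-negative library (1058 against 1394 CPM).

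Whether capillary-like cells hold more than the rest of the endothelium depends on what the rest contains. In the Lin28-negative library 5 of 7 genes were called higher: Fabp4 (1.69), Cd36 (1.76), Gpihbp1 (2.24), Lpl (2.80, 2.59 to 3.02) and Meox2 (2.09), beside 6.34% of all genes. In the Lin28-positive cKit-negative library 1 was (Lpl, 3.11, 2.77 to 3.51), beside 5.11%, and in the Lin28-positive cKit-positive library 2 were (Gpihbp1, 1.75, and Lpl, 1.95), beside 5.40%, with Fabp4 just under the limit of 1.5. None was called lower in any library, beside 10.7%, 7.48% and 7.82% of all genes. Without the endocardial cluster, a comparison added after these values were seen, 3, 1 and 0 genes were called higher, beside 3.94%, 4.41% and 4.07% of all genes. The 3 were Gpihbp1, Lpl and Fabp5, and the log2 ratio of Fabp5 went from -0.08 to 0.61.

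A finer grouping gave 7 endothelial clusters, 3 of them from the capillary-like cells. One was led by Apln, Il4i1 and Cxcl9 (87, 31 and 51 cells), another by Tcap, Tnnc1 and Mb, which are muscle genes (173, 34 and 105 cells), and the third by Car4, Lpl and Slc28a2 (125, 88 and 104 cells, 83.3% of them capillary-like). In the Apln-led cells Lpl was at 575, 707 and 671 CPM against 1260, 1606 and 1262 CPM in the other capillary-like clusters together, ratios of 0.456 (0.395 to 0.525), 0.440 (0.379 to 0.509) and 0.531 (0.462 to 0.609). Lpl itself was not used to form the clusters.

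The Apln-led cells were also lower in Tcf15, at 0.597, 0.434 and 0.458 times the level of the other capillary-like cells, in Cd36, at 0.655, 0.691 and 0.641 times, and in Fabp4, at 0.685, 0.727 and 0.709 times. Meox2 stood at 0.633, 0.491 and 0.874 times. Fabp5 did not follow, with 1.04, 1.35 and 1.26 times, and Gpihbp1 stood at 0.900, 0.943 and 0.724 times. The Apln-led cells were the deeper ones, with a median of 4318 against 3763, 9102 against 7446 and 6916 against 5066 UMIs per cell, and whether depth has a part in these ratios was not tested.

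Arterial-like cells split in the same way into Gja5-led cells (147 in the Lin28-negative and 46 in the Lin28-positive cKit-positive library) and Adam23-led cells (159 and 52). Gja5 encodes a connexin of larger arteries. Gja5-led cells had 288 against 899 and 233 against 983 CPM of Lpl, 0.320 (0.266 to 0.385) and 0.237 (0.176 to 0.313) times the level of Adam23-led cells. Fabp4 (0.595 and 0.609), Fabp5 (0.535 and 0.527), Cd36 (0.652 and 0.644) and Gpihbp1 (0.704 and 0.751) were lower as well. The factors differed less, with Meox2 at 1.02 and 1.25 times and Tcf15 at 0.854 and 0.891 times.

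**Figure D3:**
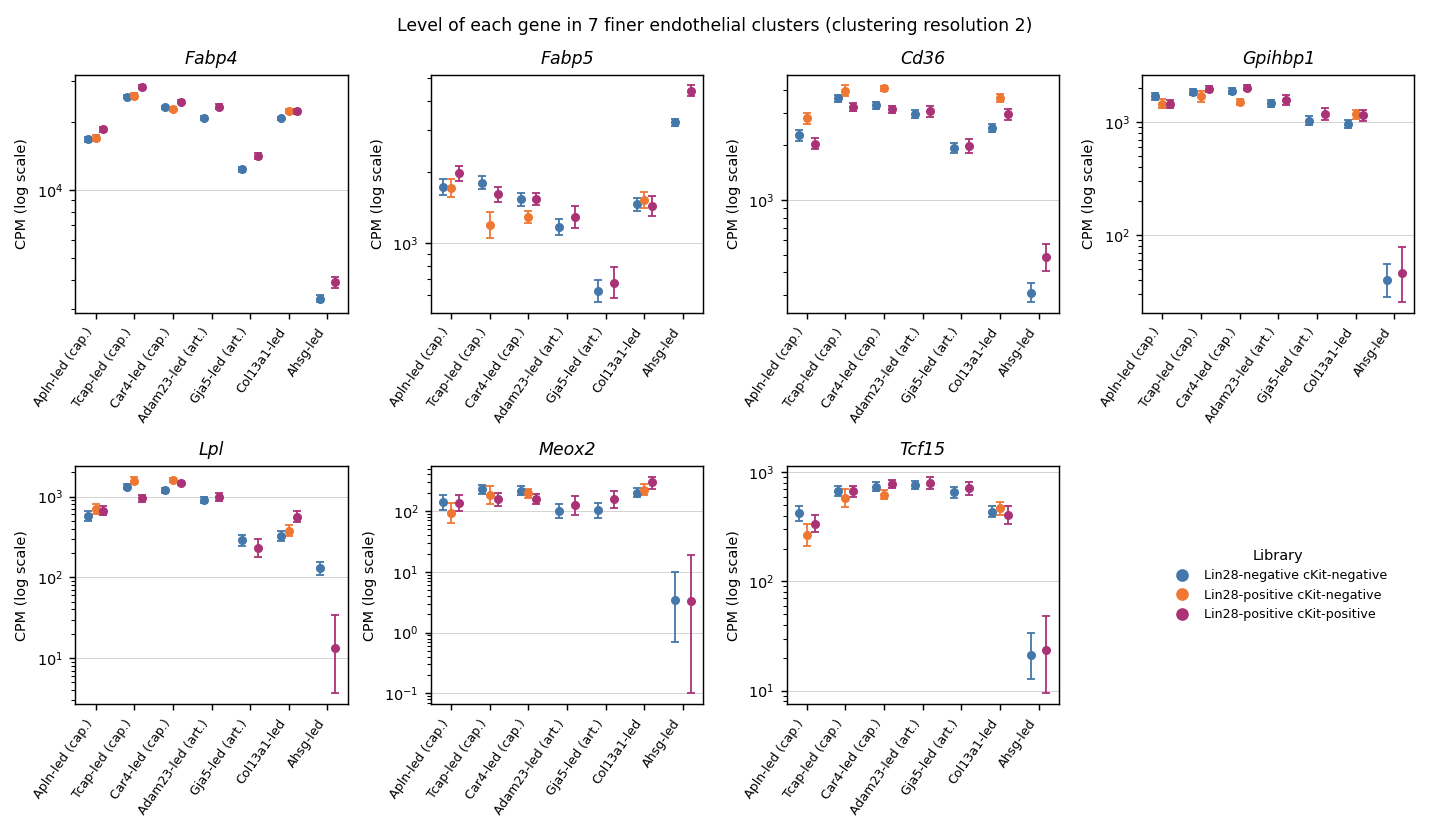
Level of each gene (CPM, log scale, with 95% Poisson intervals) in the 7 finer endothelial clusters, coloured by library; cap. marks clusters made mostly of capillary-like and art. of arterial-like cells, and lower interval ends below 0.1 CPM are drawn at 0.1. Lpl is at 899 CPM in Adam23-led and 288 CPM in Gja5-led cells of the Lin28-negative library, and the Apln-led cells lie under the other capillary-like clusters for Fabp4, Cd36, Lpl and Tcf15.

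Between the sorted populations the question was whether endothelial cells sorted as Lin28-positive, or as cKit-positive as well, differ in these genes. Endothelial-like cells of the Lin28-positive cKit-negative library had more Cd36, 3517 (3435 to 3601) against 2278 (2233 to 2324) CPM in the Lin28-negative library, a ratio of 1.54 (1.5 to 1.59). They also had more Lpl, 1030 (986 to 1076) against 643 (619 to 668) CPM, a ratio of 1.60 (1.51 to 1.70). These were 2 of 7 genes called higher, beside 4.03% of all genes, and 0 lower, beside 7.26%. The other ratios were 1.25 for Fabp4, 0.804 for Fabp5, 1.14 for Gpihbp1, 1.28 for Meox2 and 1.01 for Tcf15. The median log2 ratio was 0.32 over the 7 genes and -0.04 over all genes.

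The make-up of the endothelium moved with these ratios. Capillary-like cells were 40.8%, 61.6% and 56.5% of the endothelial-like cells, and the median UMIs per endothelial-like cell were 4054, 7672 and 5574. Within the capillary-like cluster 0 of 7 genes were called, beside 3.44% higher and 4.09% lower of all genes. There Cd36 stood at 1.20 (1.15 to 1.25) and Lpl at 1.27 (1.18 to 1.36), and the other 5 lay between 0.827 and 0.964. With the capillary-like, arterial-like and Col13a1-led clusters given equal weight, log2 ratios were 0.35 for Cd36 and 0.30 for Lpl. Without endothelial-like cells rich in macrophage or fibroblast markers 1 of 7 genes was called higher, beside 3.45% of all genes.

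Between the Lin28-positive libraries 0 of 7 genes were called in endothelial-like cells, beside 3.56% higher and 3.54% lower of all genes. The ratios of the cKit-positive to the cKit-negative library were 0.996 for Fabp4, 1.27 for Fabp5, 0.729 (0.705 to 0.754) for Cd36, 1.12 for Gpihbp1, 0.816 for Lpl, 0.865 for Meox2 and 1.15 for Tcf15. In the capillary-like cluster it was also 0 of 7, beside 2.41% and 3.03%, with Cd36 at 0.773 and Lpl at 0.775. Both comparisons use the Lin28-positive cKit-negative library, so that library being high for Cd36 and Lpl enters each of them.

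**Figure D4:**
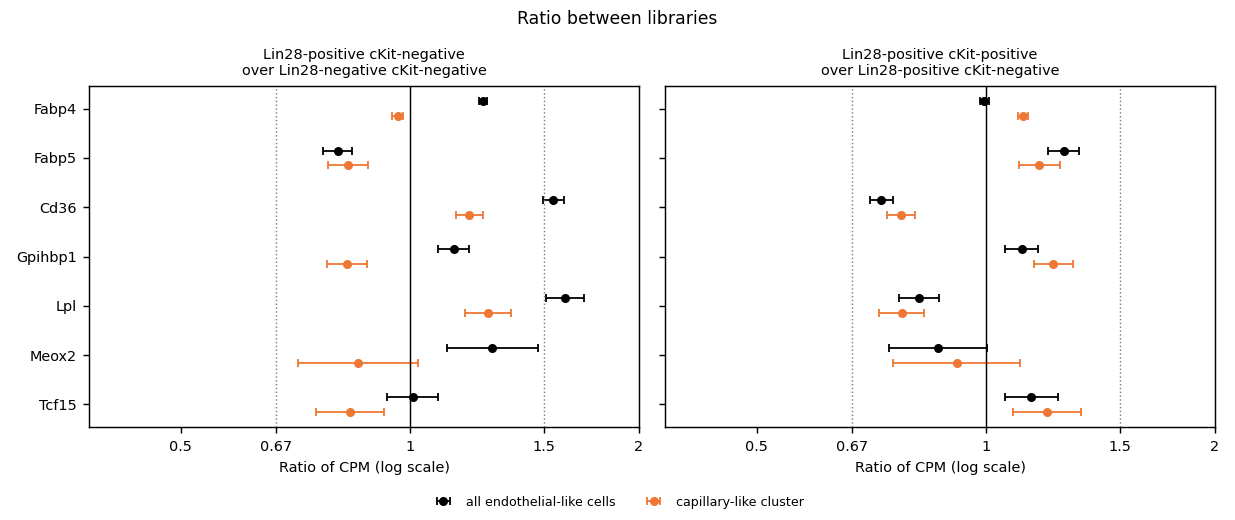
Ratio of CPM between libraries (log scale, with 95% intervals) for each gene, in all endothelial-like cells (black) and in the capillary-like cluster (orange); dotted lines mark 1.5 times in either direction. In the left panel Cd36 (1.54) and Lpl (1.60) pass 1.5 in all endothelial-like cells, but at 1.20 and 1.27 do not within the capillary-like cluster.

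Of 69 other fatty acid genes in 4 lists, all with a row, the transport list had 18 measured members in the comparison of the Lin28-positive cKit-negative with the Lin28-negative library in endothelial-like cells. Cavin1, which shapes caveolae (1.72), and Fabp3, the binding protein of heart muscle (1.57), were higher, and Lrp1, a lipoprotein receptor, was lower (0.0395). The fibroblast marker sum given above was lower in the same library, and the part of that RNA was not tested. Of 13 regulators, the fatty acid sensors Pparg (1.80, 1.49 to 2.18) and Ppard (1.87, 1.24 to 2.82) were higher and Nr1h3 was lower (0.195). Of 12 storage genes G0s2, an inhibitor of lipolysis, was lower (0.10), and it is among the leading genes of a fibroblast-like cluster. Of 18 oxidation genes Etfa (0.601) and Decr1 (0.531) were lower. By the same rule 4.03% of all genes were called higher and 7.26% lower in this comparison. Within the capillary-like cluster the called genes were Lrp1 (0.0949), G0s2 (0.0316), Acadvl (0.666), Hadha (0.594) and Etfa (0.583), all lower. There 3.44% of all genes were called higher and 4.09% lower.

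Median log2 ratios in endothelial-like cells were 0.05 for transport, 0.15 for regulators, -0.003 for storage and -0.18 for oxidation, beside -0.04 for all genes. For Fabp3, muscle RNA at the marker share of capillary-like cells would give 72.4%, 99.7% and 121% of the level measured there (30.1, 33.0 and 33.5 CPM). Cardiomyocyte markers summed to 210, 389 and 473 CPM in endothelial-like cells.

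Between the Lin28-positive libraries 3.56% of all genes were called higher and 3.54% lower in endothelial-like cells. Of 16 transport genes Acsl4, an acyl-CoA synthetase, was lower (0.595), and of 13 regulators Ppard was lower (0.405) and Nr1h3 higher (3.08, 1.13 to 10.4). Of 12 storage genes G0s2 was higher (2.87), and of 18 oxidation genes Pdk4, a brake on glucose oxidation, was lower (0.244). In the capillary-like cluster Acsl4 (0.493) and Ppard (0.355) were lower and no other listed gene was called. There 2.41% of all genes were called higher and 3.03% lower. Macrophage markers summed to 46.8, 461 and 726 CPM in endothelial-like cells, with 6, 10 and 10 of 10 detected, and fibroblast markers rose from 207 to 493 CPM beside G0s2; their part was not tested.

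Against other endothelial-like cells of the same library, 3 of 18, 4 of 13 and 1 of 13 measured transport genes were called higher in capillary-like cells, and 3, 1 and 0 lower. Of 13, 11 and 13 regulators 1, 0 and 0 were higher and 2, 1 and 2 lower. Of 12, 9 and 11 storage genes 3, 2 and 0 were higher and 1, 0 and 1 lower. Of 17, 15 and 16 oxidation genes 0 were higher and 0, 1 and 1 lower. The shares of all genes called in these comparisons were 6.34%, 5.11% and 5.40% higher and 10.7%, 7.48% and 7.82% lower. Capillary-like cells had more Angptl4, an inhibitor of lipoprotein lipase, at 2.17 (1.51 to 3.12), 1.77 (1.04 to 3.17) and 2.47 (1.49 to 4.27) times. Scarb1, a lipoprotein receptor, was higher in the Lin28-negative (1.74) and the Lin28-positive cKit-negative library (2.06). Mgll, which splits monoglycerides, was at 2240 against 1401 and 2057 against 1362 CPM in those libraries. Pparg was higher in the Lin28-negative library (1.94, 1.49 to 2.52). Notch1 was lower in the Lin28-negative (0.650) and the Lin28-positive cKit-positive library (0.539).

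Outside the endothelium Lpl was the main exception by share of UMIs. Fibroblast-like cells of the Lin28-negative library held 1336 (1323 to 1350) CPM of Lpl, above the 1100 CPM of its capillary-like cells, and 95.5% of them had an Lpl UMI, 64.1% after thinning. The 34 fibroblast-like cells of the Lin28-positive cKit-negative library held 1058 (962 to 1160) CPM. Among the fibroblast-like clusters of the Lin28-negative library the level ran from 590 CPM in cells led by Duoxa1 to 1833 CPM in the highest. Over whole libraries Lpl was at 1215, 433 and 344 CPM, highest in the library with the most fibroblast-like cells, and Fabp4 was at 2434, 6041 and 5949 CPM, lowest in it. Fabp5 was high in a small class too. The 40 pericyte-like cells of the Lin28-negative library held 1118 (970 to 1282) CPM, with a UMI in 92.5% of them. Arterial-like cells of that library held 938 CPM. The pericyte-like cells also held 181 CPM of Gpihbp1 and 285 CPM of Tcf15, and the part of carried endothelial RNA was not tested.

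The endothelial markers in fibroblast-like cells of the Lin28-negative library stood at 2.99% of their endothelial level. Measured against the level that share would carry along, Lpl was 69.4 times as high, Meox2 3.32 times and Fabp5 1.99 times. Fabp4 (0.468), Cd36 (0.372), Gpihbp1 (0.486) and Tcf15 (0.402) were under it. Meox2 was at 13.2 (11.9 to 14.6) CPM there, and at 13.0 CPM without the 287 cells with 5 or more endothelial marker UMIs.

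In macrophage-like cells Cd36, also known as a scavenger receptor of macrophages, was at 345 (329 to 363) and 257 (245 to 269) CPM in the Lin28-positive libraries and Lpl at 136 (126 to 147) and 145 (136 to 154) CPM. Cd36 was 3.6 and 3.95 times and Lpl 4.84 and 6.78 times the level that the endothelial marker share (2.73% and 2.54%) would carry along. The other 5 genes lay between 0.637 and 1.37 times that level. After thinning 24.0% and 20.6% of macrophage-like cells had a Cd36 UMI, beside 2.10% of fibroblast-like cells of the Lin28-negative library; without thinning these shares were 83.0%, 74.1% and 19.7%. Cells led by Retnla, Fcna and Folr2, genes of resident macrophages, held 380 and 310 CPM of Cd36 against 189 and 183 CPM in Il1b-led cells, while Lpl was 121 and 120 against 161 and 177 CPM. Gpihbp1 was 25.4 and 35.4 against 1.93 and 29.6 CPM in the same cells. The part of carried endothelial RNA in the Cd36 difference was not tested.

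A few macrophage-like cells held a large share of the other genes' UMIs, 80.2% and 50.2% of those of Fabp4. Leaving out the cells with 5 or more endothelial marker UMIs, 20 of 276 and 31 of 613, took Fabp4 from 498 to 110 CPM and from 492 to 269 CPM, whereas Cd36 stayed at 82.1% and 88.0% and Lpl at 91.4% and 94.5% of the level. Between the Lin28-positive libraries 0 of 7 genes were called in macrophage-like cells, beside 1.55% higher and 5.08% lower of all genes, with Cd36 at 0.744 (0.695 to 0.796) in the cKit-positive against the cKit-negative library. In the cells that were kept, Fabp4 (2.44, 2.20 to 2.71), Fabp5 (1.88), Gpihbp1 (4.63) and Tcf15 (3.02) were called higher, 4 of 7 beside 2.04% of all genes, and Cd36 stood at 0.797. All 4 are among the genes found near the level carried along, and Gpihbp1 rests on 125 UMIs against 17. The cut at 5 UMIs fell on cells of unlike depth, a median of 9939 against 13879 UMIs in all macrophage-like cells. The part of this cut in these ratios was not tested. Of the listed genes, Acsl1 was higher (1.72) and Cavin1 (0.574), Cavin2 (0.496) and Flt1 (0.637) were lower in all macrophage-like cells. Flt1 is an endothelial gene. The endothelial markers summed to 198 and 191 CPM in these cells, and the part of carried RNA in these ratios was not tested.

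**Figure D5:**
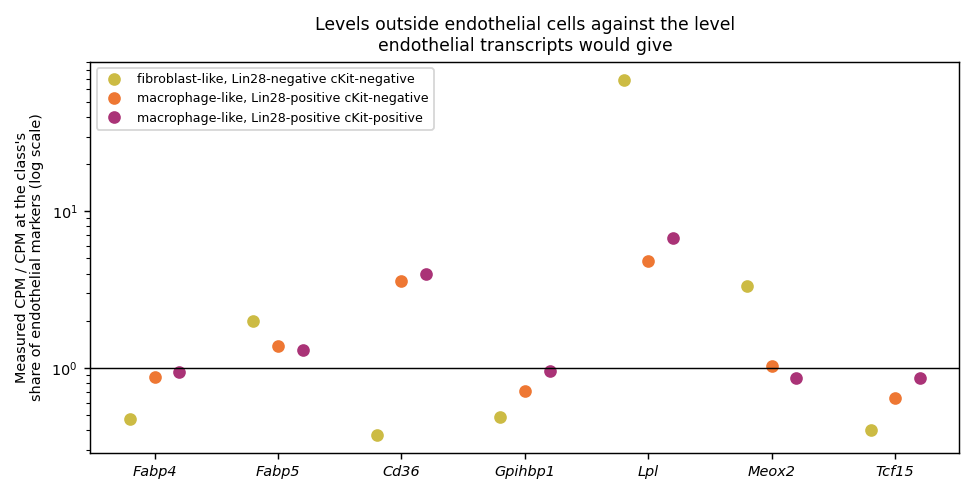
Measured level of each gene in fibroblast-like and macrophage-like cells divided by the level that the endothelial marker share of those cells would carry along (log scale; 1 means as much as carried RNA would give). Lpl in fibroblast-like cells lies at 69.4, Cd36 and Lpl in macrophage-like cells lie between 3.6 and 6.78, and Gpihbp1 and Tcf15 lie under 1 in all 3 classes. In fibroblast-like cells 1 of the 10 markers gave 132 of the summed 220 CPM, so their ratios may be too low.

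Over 28 sums of a cell cluster within a library, genes with the most similar pattern were ranked by Pearson's r of log2(CPM + 1) among 10584 genes. The sums share libraries and 11 of them are endothelial, so most endothelial genes score high and the values only describe. Fabp4 was most like Egfl7 (r = 0.978), Esam and Cd300lg, and Gpihbp1 most like Mcf2l (0.956), Kitl and Cdh5. Cd36 came with Afap1l1 (0.964), Elk3 and Itga6, Tcf15 with N4bp3 (0.977), Bcl6b and Galnt18, and Meox2 with Phlpp1 (0.926), Rflnb and Tsnax. Fabp5 came with Tspan2 (0.962), Emcn and Bcam, of which Emcn marks capillary, venous and endocardial cells. Lpl stood apart, with Vwa1 (0.864), Sparcl1 and Tril, and its r with the other 6 genes ran from 0.054 for Cd36 to 0.578 for Meox2, against 0.922 between Fabp4 and Cd36.

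Within the capillary-like cluster cells were also divided by whether they had a UMI of a factor. Cells with a Tcf15 UMI held 1.25 (1.21 to 1.29), 1.22 and 1.37 times the Fabp4 level of cells without, and 1.21, 1.20 and 2.05 times the Lpl level. For Cd36 the ratios were 1.10, 0.961 and 1.08, for Gpihbp1 1.11, 1.26 and 1.28, for Fabp5 0.943, 0.975 and 0.887 and for Meox2 1.37, 0.770 and 1.44. Of these 6 genes 0, 0 and 1 (Lpl) were called higher, beside 1.95%, 1.69% and 1.34% of all genes. Cells with a Tcf15 UMI were deeper, with a median of 3981 against 2784, 7880 against 5169.5 and 5459 against 3775 UMIs, and only 22 and 23 cells in the Lin28-positive libraries had none. For Meox2 the Fabp4 ratio was 1.10, 1.03 and 1.06 and the Cd36 ratio 1.10, 1.08 and 1.01, while Lpl stood at 1.30, 0.902 and 0.992 and Fabp5 at 1.19, 0.918 and 1.07. None of the 6 other genes was called higher, beside 1.97%, 2.64% and 2.04% of all genes.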

How the data were processed

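The deposited tables hold 1 natural log value per gene and cell, ln(1 + 10000 × gene UMIs / cell UMIs), as the values show. Per the submitters' processing notes the authors used Cell Ranger (version not given in the sources used here), Seurat 4.0.2 and the genome build mm10. Tables of counts had been assumed. Undoing the log gave whole UMI counts for 100% of the values within 0.01, and all levels were computed from these. Every cell has at least 500 UMIs. Transcripts of Lin28a and Lin28b were not analysed here.

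All 5833 cells were clustered with scanpy 1.11.5 under Python 3.11.15 (numpy 2.4.6; 2000 variable genes, 30 principal components, 15 neighbours, leidenalg 0.10.2 at resolution 1), without the 7 genes, the 69 listed fatty acid genes and Kit, giving 21 clusters. Clusters were named "-like" from fixed markers of 23 cell types. At least 3 had to be detected in 10% of the cluster's cells and stand at 25% or more of the highest cluster. A cluster stayed unnamed where these were too small a share of the type's markers or a second type had strong markers too. It also did where its leading genes were of another type, or where depth was low and no leading gene was a marker of its type. In all, 4.20%, 12.5% and 8.16% of the cells stayed unnamed. Scrublet marked 26 cells (0.446%), was not counted as having worked, and no cell was removed.

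UMIs were summed per class and library. Levels carry exact Poisson, ratios exact conditional binomial and cell shares Clopper-Pearson limits at 95%, from scipy 1.17.1, which cover counting error only. Genes with at least 20 UMIs in a pair were measured, libraries were compared in classes with at least 50 cells in each, and levels are given from 20 cells up. The ratio script was tested on simulated data. Level carried along means the level in the source class times the share its markers reach in the other class. Named genes are the 7, the called list genes with up to 3 of the largest ratios per direction, and for each of the 7 the 3 genes most alike. The genes, lists and markers were chosen with earlier results of these data known. Alternatives changed the scaling, cell filters, clustering, fold and UMI minimum.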

Additional observations from a re-analysis of the deposited data

Results flagged for a closer look

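The ratio of Lpl in endothelial-like cells to all other cells pointed in opposite directions between libraries. It was 0.496 for the Lin28-negative cells, 4.75 for the Lin28-positive cKit-negative and 4.93 for the Lin28-positive cKit-positive cells. The difference between libraries was not tested, since each population has 1 library. Fibroblast-like cells, which held 1336 CPM of Lpl, were 69.6% of the cells of the Lin28-negative library, and only 34 and 12 cells of the others. Within endothelial-like cells Lpl was 643, 1030 and 840 CPM.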

How the results depend on the processing

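Of the counts of called genes, 154 stayed within 1.5 times under the alternatives planned and 16 did not; of those added after the data were seen, 21 did and 5 did not. For the Lin28-positive cKit-negative against the Lin28-negative library, the 2 of 7 genes called higher became 0 with means of CPM per cell, with a fold of at least 2, within the capillary-like cluster alone and with equal cluster weights, and 1 without the 5% of cells with the highest Scrublet scores or without marker-rich cells. The 4 listed genes called higher there became 0 with a fold of at least 2 or in the capillary-like cluster alone and 2 without marker-rich cells, and the 5 called lower became 3 with a fold of at least 2. Between the Lin28-positive libraries the 2 listed genes called higher became 1 with 1 added to the CPM and 0 with at least 100 UMIs or in the capillary-like cluster alone, and the 3 called lower became 0 with at least 100 UMIs. For capillary-like against other endothelial-like cells, the 5, 1 and 2 genes called higher in the 3 libraries became 3, 1 and 0 with a fold of at least 2 or without the endocardial cluster; in the Lin28-positive libraries they became 5 and 5 at clustering resolution 0.5, and in the Lin28-positive cKit-negative library 2 at resolution 2. Of 427 log2 ratios under alternatives, 35 lay on the other side of 0. In 28 of these either value was within 0.10 of 0 or the new value lay within the counting interval of the first, among them Fabp4 (-0.05) and Tcf15 (-0.26) in the first comparison within the capillary-like cluster and, for capillary-like cells without the endocardial cluster, Fabp5 (0.61) and Tcf15 (-0.03) in the Lin28-negative and Meox2 (-0.13) in the Lin28-positive cKit-negative library. The other 7 were Gpihbp1 (-0.27) and Meox2 (-0.23) in the first comparison within the capillary-like cluster, Meox2 between the Lin28-positive libraries with equal weights (0.18), and for the capillary-like cells Tcf15 in the Lin28-positive cKit-negative library with fatty acid genes kept for clustering (-0.20) and, without the endocardial cluster in the Lin28-positive cKit-positive library, Fabp5 (0.51), Meox2 (-0.19) and Tcf15 (-0.14). The causes were not tested. No paired analysis was possible because each population has 1 library, which also allows no library to be left out. Depth limits Meox2 in endocardial-like cells, which rests on 3 UMIs and 1 UMI.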

Other observations

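In lymphatic endothelial-like cells, 43 over all libraries together, Gpihbp1, the anchor of lipoprotein lipase, was at 538 (458 to 628) CPM, with a UMI in 72.1% of the cells and a median depth of 5871 UMIs. Of its 162 UMIs there, 33 lay in 1 cell, and the median was 1 UMI per cell. After thinning 30.2% of the lymphatic cells had a Gpihbp1 UMI, beside 1.78% of fibroblast-like cells. Over all libraries fibroblast-like cells, which were deeper (median 10151 UMIs), held 16.8 CPM of Gpihbp1, with a UMI in 14.6% of the cells. Fabp4 was at 279 (223 to 345) CPM in the lymphatic cells, beside 231 CPM in fibroblast-like and 206 (144 to 285) CPM in B cell-like cells. Lpl had 35 UMIs there, 28 of them in 1 cell, and Cd36 had 28 UMIs, 11 of them in 1 cell. Fabp5 had 12 UMIs, Meox2 had 8 and Tcf15 had 1. Lymphatic vessels carry fat-laden lipoproteins away from tissues. The cells are too few to compare between libraries.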
